A study of Mus musculus with 6 samples.

Results

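The plasminogen activators, their cell surface receptor and serpins that bear on them were followed in primary mouse dermal fibroblasts as Plau, Plat, Plaur, Serpine2, Serpinb2 and Serpinf1. Probe sets, the groups of short probes that report a transcript on the array, were taken where the platform annotation gave 1 gene symbol equal to 1 of these 6. That gave 8 probe sets for 5 genes, of 45037 probe sets that are not Affymetrix controls and 18193 genes with such a probe set. Serpine2 was not analysed here. RNA came from cultures given endothelin 1 (Et1), a peptide ligand of G-protein-coupled receptors, made synthetically and used at 100 nM for 24 hours (3 arrays), and from cultures with nothing added (3 arrays). All cultures were of strain B6 at passage 6, grown from the dermis of pups of mixed sex aged 0 to 2 days per the sample labels, in medium with serum. The series text gives 0 to 3 days and passage 5, and says that cells were split into a treated and an untreated culture. The labels call the 3 arrays of a group biological replicates and name no animals, so the p-values measure the spread between these cultures, which may be in part technical. These are cultured cells of newborn skin at a single dose and a single time.

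Plasmin is a protease that dissolves fibrin and cuts matrix proteins. It is made from plasminogen by tissue-type activator, encoded by Plat, which works best on fibrin, and by urokinase, encoded by Plau, which works at the cell surface when held there by its receptor Plaur. Serpins are inhibitors that trap their target protease in a covalent complex: Serpinb2 encodes an inhibitor of urokinase that stays largely inside cells, and Serpinf1 encodes pigment epithelium-derived factor, a secreted relative that acts on vessels and nerve cells and does not inhibit proteases. Fibroblasts in culture use this system to remodel matrix during migration and wound repair.

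Signals are linear and, because the trimmed means of the arrays ran from 91.7 to 179, all were brought to 139. The tested probe sets are those whose mean over the 6 arrays was at least 41.0, the median of all, and a limma adjusted p under 0.05 was the threshold. Of 22519 probe sets tested, 0.346% passed, 0.0977% as higher and 0.249% as lower in Et1 cultures. The arrays also fell apart by the spike-in controls, bacterial RNAs that can be mixed into a sample ahead of the labelling step: the mean log2 signal of 27 such probe sets was 4.75 to 5.64 on Et1 replicates 1 and 3 and control replicate 3, the high set, and 3.45 to 3.57 on Et1 replicate 2 and control replicates 1 and 2, the low set. Of the tested probe sets, 16.7% differed between these sets in limma with the group in the fit, so limma was also run with the set as a block. Those values are given for the members and, in the related lists, for probe sets that passed in that fit, with the other probe sets of Mrc2, Htra1 and Prss23. Of 10 markers of dermal fibroblasts 9 were tested, with Vim at 6833 to 10130 on all arrays, and Lum lay under the filter at 21.8 to 51.7. Means of 14 of the 16 tested fibroblast probe sets were lower with Et1 (median -0.43 on the log2 scale), and 0 passed without the block.

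Serpinb2 had the largest difference among these genes and stood higher in Et1 cultures, Plaur was on average higher with overlapping groups, Plat was lower on its brighter probe set, Plau gave hardly any signal, and the 2 probe sets of Serpinf1 lay near no change. Of the 8 probe sets 5 were tested, and 0 of these 5 passed the limma threshold. In the fit blocking on the spike-in set, where 3.85% of all tested probe sets passed and 1.39% passed as higher, 1 of the 5, Serpinb2, did so. The Et1 signals lay all above the control signals for Serpinb2 and all below for the brighter Plat probe set, against 9.47% and 8.11% of all tested probe sets. In bulk RNA of a culture, fewer cells of a kind and less RNA per cell cannot be told apart.

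**Figure D1:**
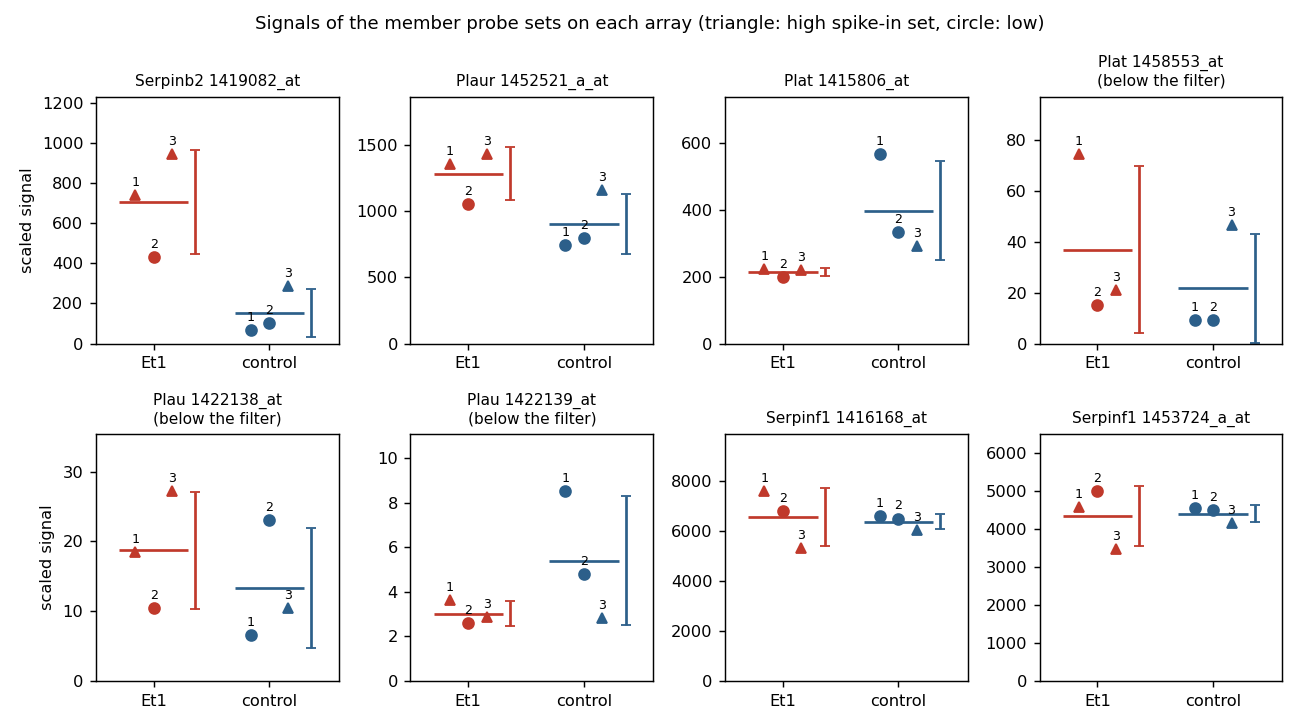
Scaled signal (linear axis from 0) of each of the 8 probe sets on the 3 Et1 arrays (left) and the 3 control arrays (right), with the replicate number beside each point, a line at the group mean and a bar of 1 SD. Triangles are arrays of the high spike-in set and circles those of the low set. The Et1 signals of Serpinb2 lie between 429.9 and 946, all above the control signals, while those of both Serpinf1 probe sets overlap with control.

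Plau, the gene of urokinase (gene positions are those of RefSeq on GRCm38.p6, here chr14:20836662-20843388), had 2 probe sets, both far under the filter and therefore not tested. The first read 18.4, 10.5 and 27.2 on Et1 replicates 1, 2 and 3, against 6.55, 23.0 and 10.4 on control replicates 1, 2 and 3. The second read 3.62, 2.58 and 2.86 in Et1 cultures and 8.52, 4.81 and 2.83 in control cultures. The groups overlapped on both, and the probe sets pointed in opposite directions, with mean log2 differences of 0.58 and -0.71. At such signals a change in urokinase transcripts was not detectable here.

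Plat, the gene of tissue-type plasminogen activator (chr8:22757722-22782848), had 1 tested probe set, with signals of 222, 200.1 and 220.1 on Et1 replicates 1, 2 and 3, against 568, 333 and 292 on control replicates 1, 2 and 3. The Et1 cultures were close to each other and all lay below the control cultures, whose spread came mostly from replicate 1. Means were 214 ± 12.1 in Et1 and 398 ± 149 in control cultures (SD, n = 3 each). The log2 fold change was -0.83 (SE 0.25, 95% interval -1.39 to -0.27, limma adjusted p = 0.225), which did not pass. It was -0.76 when blocking on the spike-in set (limma adjusted p = 0.0928), and the difference was -1.12 in the low set alone and -0.40 in the high set alone. Without control replicate 1 the log2 fold change was -0.55 (limma adjusted p = 0.600).

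A second probe set annotated to Plat, which was designed on an expressed sequence tag, lay under the filter. It read 74.7, 15.2 and 21.0 on Et1 replicates 1, 2 and 3, and 9.36, 9.41 and 46.5 on control replicates 1, 2 and 3. The groups overlapped, and the 3 higher signals, 74.7 and 21.0 in Et1 and 46.5 in control cultures, were those of the high spike-in set. Its mean log2 difference of 0.85 ran opposite to that of the brighter probe set and was not tested.

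Plaur, the receptor that anchors urokinase to the cell membrane (chr7:24460937-24475970), had a single probe set. Its signals were 1358, 1058 and 1437 on Et1 replicates 1, 2 and 3, against 748, 797 and 1163 on control replicates 1, 2 and 3. The groups overlapped at 1 point: Et1 replicate 2 read below control replicate 3. Means were 1284 ± 199.9 in Et1 and 903 ± 227 in control cultures (SD, n = 3 each), a fold of 1.44 with a 95% interval of 1.04 to 1.99 (log2 fold change 0.53, SE 0.20, limma adjusted p = 0.352). Within each spike-in set the Et1 signals were the higher ones, by 0.46 on the log2 scale in the low set and by 0.26 in the high set. With the set as a block the log2 fold change was 0.36 (SE 0.10, limma adjusted p = 0.0870), again short of the threshold. Plaur also differed between the sets themselves, by 0.50 on the log2 scale, high minus low (limma adjusted p = 0.00970, where 6.71% of tested probe sets passed as higher in the high set).

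Serpinb2, the inhibitor of urokinase (chr1:107500892-107525600), had a single probe set, with signals of 738, 429.9 and 946 on Et1 replicates 1, 2 and 3, against 65.9, 104 and 288 on control replicates 1, 2 and 3. Every Et1 culture lay above every control culture, and in both groups the arrays of the high spike-in set were the higher ones. Means were 705 ± 259.6 in Et1 and 153 ± 119 in control cultures (SD, n = 3 each). The fold, taken on the log2 scale, was 5.34 with a 95% interval of 2.40 to 11.9 (log2 fold change 2.42, SE 0.51, limma adjusted p = 0.103), which missed the threshold. A log2 fold change at least this large was seen for 4 of 22519 tested probe sets, Serpinb2 included, and its SE was larger than that of 95.8% of them.

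Set against its own spike-in set, Serpinb2 was higher with Et1 in both. In the low set Et1 replicate 2 read 429.9, against 65.9 and 104 on control replicates 1 and 2, a log2 difference of 2.38. In the high set Et1 replicates 1 and 3 read 738 and 946, against 288 on control replicate 3, a log2 difference of 1.54. With the set as a block the log2 fold change was 1.96 (SE 0.23, 95% interval 1.45 to 2.47) and Serpinb2 rose past the threshold (limma adjusted p = 0.00293). The difference between the sets, high minus low with the group in the fit, was 1.38 (SE 0.23, limma adjusted p = 0.00353). What set the spike-in signals apart is not given in the sources used here, and its part in the signals of Serpinb2 and Plaur was not tested.

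The call of Serpinb2 turned on single arrays. Without control replicate 3, the control array with the highest signal, the log2 fold change was 3.02 (limma adjusted p = 0.0158). That array is also the sole control array of the high set, so this fit sets Et1 arrays of both sets against low-set controls alone. With the set as a block and the same array left out, the log2 fold change was 2.38. With each other array left out and no block it lay between 1.95 and 2.74 and did not pass. With the set as a block the call was lost without Et1 replicate 2, the sole Et1 array of the low set, where the log2 fold change was 1.54 (limma adjusted p = 0.104). It held with each other array left out.

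**Figure D2:**
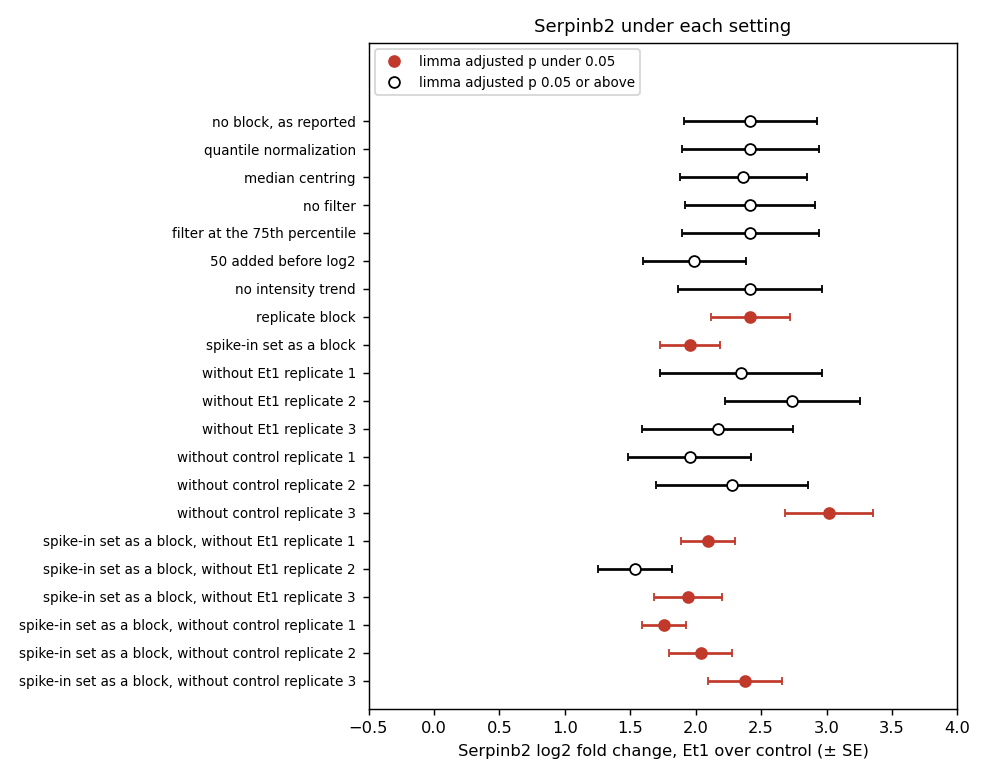
Log2 fold change of Serpinb2, Et1 over control, with a bar of 1 SE, under the reported comparison and under each other setting (rows). Filled points passed a limma adjusted p of 0.05. All 21 values lie above 0, between 1.54 and 3.02, and 8 of them passed.

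Serpinf1, the gene of pigment epithelium-derived factor (chr11:75410029-75422623), was bright on both of its probe sets. On the brighter it read 7606, 6821 and 5320.3 on Et1 replicates 1, 2 and 3, against 6599, 6503 and 6038 on control replicates 1, 2 and 3. On the dimmer it read 4578, 5003 and 3464 in Et1 and 4549, 4514 and 4149.5 in control cultures. The groups overlapped on both, and Et1 replicate 3 was the lowest array on both. The Et1 cultures varied more among themselves: means on the brighter were 6583 ± 1161 in Et1 and 6380.1 ± 299.8 in control cultures (SD, n = 3 each). On the brighter the log2 fold change was 0.030 (95% interval -0.30 to 0.36, limma adjusted p = 0.952), and on the dimmer it was -0.034 (95% interval -0.38 to 0.31, limma adjusted p = 0.949). With the set as a block the log2 fold changes were 0.067 and 0.042 (limma adjusted p = 0.866 and 0.912). The intervals without it leave room for changes up to a fold of 1.28 up, and down to a fold of 0.768.

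**Figure D3:**
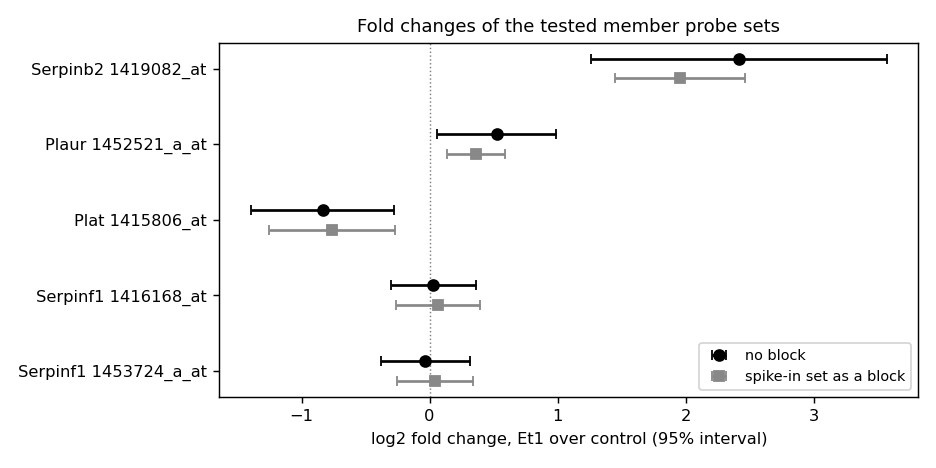
Log2 fold change, Et1 over control, of the 5 tested probe sets (rows) with 95% intervals, from limma without a block (circles) and when blocking on the spike-in set (squares). The intervals are not adjusted for the number of probe sets tested. The interval of Serpinb2 starts at 1.26 without the block and at 1.45 with it, and those of both Serpinf1 probe sets span 0.

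Promoter sequences of 3 of these genes are shown because Serpinb2 and Plaur had higher means in Et1 cultures while Serpinf1 differed little, and they can be compared letter by letter. Each is the stretch of 250 bases before a transcription start listed from RefSeq (GRCm38.p6), 5′ to 3′ on the strand of the gene, for Serpinb2 at chr1:107511173-107511422 (plus strand, the first of 2 listed starts), for Plaur at chr7:24462233-24462482 (plus strand) and for Serpinf1 at chr11:75422624-75422873 (minus strand). The stretches of Serpinb2 and Plaur lie inside the gene positions given above, which begin farther upstream, while that of Serpinf1 borders its gene. Capitals mark matches on either strand to the motifs AP-1 (TGANTCA), CRE (TGACGTCA), the amino acid response element (TGATGNAA), GC box (GGGCGG), STAT (TTCNNNGAA) and TATA box (TATAAA).
Serpinb2: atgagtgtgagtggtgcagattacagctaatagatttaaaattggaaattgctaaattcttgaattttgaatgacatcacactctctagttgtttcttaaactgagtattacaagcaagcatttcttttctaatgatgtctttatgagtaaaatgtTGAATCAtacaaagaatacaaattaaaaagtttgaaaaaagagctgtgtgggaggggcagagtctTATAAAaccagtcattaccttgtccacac
Plaur: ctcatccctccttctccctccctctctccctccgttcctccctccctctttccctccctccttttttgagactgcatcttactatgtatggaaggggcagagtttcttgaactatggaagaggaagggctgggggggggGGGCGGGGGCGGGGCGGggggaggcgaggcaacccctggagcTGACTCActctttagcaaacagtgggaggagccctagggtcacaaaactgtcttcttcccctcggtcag
Serpinf1: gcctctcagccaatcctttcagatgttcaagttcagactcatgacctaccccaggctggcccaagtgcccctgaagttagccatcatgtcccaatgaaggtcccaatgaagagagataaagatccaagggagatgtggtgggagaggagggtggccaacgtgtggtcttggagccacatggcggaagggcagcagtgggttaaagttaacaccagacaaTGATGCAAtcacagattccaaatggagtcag
The Serpinb2 stretch holds an AP-1 match beginning 94 bases before the start and a TATA box match beginning 29 bases before it. The Plaur stretch holds an AP-1 match beginning 69 bases before the start and 3 GC box matches, of which neighbours overlap or abut. Serpinf1 holds a match to the amino acid response element beginning 31 bases before its start, and no AP-1 match. Over all 32851 promoter windows of 300 bases, which also take in 50 bases past the start, 7.81% held an AP-1 match, 13.6% a TATA box match, 35.7% a GC box match, 8.30% a STAT match, 3.97% an amino acid response match and 1.79% a CRE match. Past the first of its 2 listed starts Serpinb2 also had a STAT match, beginning at base 11. Counted from its second listed start, the AP-1, TATA box and STAT matches begin 181, 116 and 77 bases before it. The matches describe letters and show no binding.

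Genes around these members were followed in 7 lists holding 93 genes, of which 79 had a single-symbol probe set and 46 were tested through 82 probe sets. Of the 82, 1 passed limma's threshold as higher and 0 as lower, where 0.346% of all tested probe sets passed, and 23 had an unadjusted p under 0.05, where 12.3% of all tested probe sets did. The median log2 fold change was -0.084, against 0.032 over all tested probe sets. In the fit blocking on the spike-in set, 3 rose and 5 fell, where 1.39% of all tested probe sets passed as higher and 2.47% as lower. These calls depended on which array was left out: in the same fit 0 of the 82 passed without Et1 replicate 2 or without control replicate 3, and 18 did without Et1 replicate 1. Et1 replicate 2 is the sole Et1 array of the low set and control replicate 3 the sole control array of the high set. Without either, the blocked difference rests on the arrays of the other set alone.

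Vldlr, an endocytic receptor that takes up complexes of urokinase and its inhibitor, was the gene that rose. Its brightest probe set read 764, 694 and 858 on Et1 replicates 1, 2 and 3, against 285, 368 and 350.0 on control replicates 1, 2 and 3 (log2 fold change 1.21, SE 0.16, limma adjusted p = 0.0307), and it also rose with the set as a block, by 1.15 (limma adjusted p = 0.00253). The 4 other tested probe sets of Vldlr were all on average higher in Et1 cultures, from 0.61 on the log2 scale upwards, and did not pass. Without Et1 replicate 1 or 3, or control replicate 1 or 2, 0 of the 82 probe sets passed. Without control replicate 3, the sole control array of the high spike-in set, 4 did. The list of Vldlr, of uptake and partners of the urokinase receptor, had 17 tested probe sets with a median of -0.21, of which 12 had lower means. Among them Mrc2, a collagen receptor that associates with Plaur, had log2 fold changes of -0.98 and -1.68. On the second of these, at mean signals of 64.4 in Et1 and 195 in control cultures, Mrc2 fell when blocking on the spike-in set (log2 fold change -0.89, limma adjusted p = 0.0380). The brighter Mrc2 probe set, at -0.63 with the block, did not pass (limma adjusted p = 0.0563). Lrp1, the main clearance receptor of activators bound to inhibitors, had log2 fold changes of -0.49 and -0.38, and Lrp8, a relative, -0.30 and -0.23. Lrpap1, the chaperone of Lrp1, had -0.34 on the probe set with the smallest p, -0.21 on its brightest, and -0.073 and -0.009 on the others.

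Of the proteins that hold plasminogen at the cell surface, 3 genes were tested with 6 probe sets, and 0 passed in either fit. Plgrkt, the plasminogen receptor with a carboxy-terminal lysine, read 344, 400.5 and 403 in Et1 cultures, against 275, 283 and 353 in control cultures (limma adjusted p = 0.457). S100a10 and Anxa2, which form a complex that binds plasminogen and tissue-type activator, had log2 fold changes of 0.38 and 0.047 on the probe set with the smallest p, which for S100a10 was its dimmest, the brighter ones reading 0.18 and 0.18. Plg, plasminogen itself, lay under the filter.

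Among other inhibitors of fibrinolysis 2 genes were tested. Tfpi2, a Kunitz-type inhibitor of plasmin laid down in the matrix, read 989.9, 819 and 1155 on Et1 replicates 1, 2 and 3, against 498, 401 and 524 on control replicates 1, 2 and 3. The groups did not overlap, yet the log2 fold change of 1.05 (SE 0.18) missed the threshold (limma adjusted p = 0.0609); when blocking on the spike-in set Tfpi2 rose by 0.95 (limma adjusted p = 0.00423). Serpinf2, the main plasmin inhibitor of blood, ranged from 52.6 to 124 in Et1 and from 15.6 to 101 in control cultures. Of 37 other serpins 12 were tested with 13 probe sets, and 0 passed in either fit, with 2 at an unadjusted p under 0.05. Serpinb6b, an intracellular serpin, read 38.2, 41.1 and 29.4 in Et1 cultures, against 65.0, 81.1 and 81.5 in control cultures (log2 fold change -1.07, limma adjusted p = 0.158). Serpinb9, which inhibits granzyme B, had -0.62, Serpinb9b 0.37 and Serping1, the complement inhibitor of the family, -0.31.

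Of other activating proteases and their inhibitors 7 genes were tested with 17 probe sets and 0 passed without the block. With it 1 of 2 probe sets of Htra1, a secreted serine protease, rose by 0.67 (limma adjusted p = 0.0252), while the other, at 0.39, did not pass (limma adjusted p = 0.166). Of 3 probe sets of Prss23, another serine protease, the dimmest fell by 0.67 on the log2 scale (limma adjusted p = 0.0380). The brighter ones, at -0.45 and -0.35, did not pass (limma adjusted p = 0.0632 and 0.397). Masp1, a protease of the lectin pathway of complement, had log2 fold changes of -1.53 to 0.057 over 4 probe sets, none past the threshold. The probe set at -1.53 was its dimmest in Et1 cultures, at 11.1 to 50.7 in Et1 and 53.6 to 77.7 in control cultures, and the other 3 read -0.13, -0.095 and 0.057. Ctsb, cathepsin B, had -0.49 and -0.27 on its dimmer probe sets and 0.18 and 0.11 on its brighter ones, none past the threshold.

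In the tissue factor and thrombin list 8 genes were tested with 12 probe sets, of which 9 had lower means. F3, tissue factor, which starts coagulation, read 735, 578 and 1262 on Et1 replicates 1, 2 and 3, against 1659, 1270.1 and 1911 on control replicates 1, 2 and 3. Its log2 fold change of -0.97 did not pass (limma adjusted p = 0.219), and when blocking on the spike-in set it fell by 1.16 (limma adjusted p = 0.0145). Gas6, a vitamin K-dependent ligand of TAM receptors, likewise did not pass at -1.15 and fell by 0.93 with the block (limma adjusted p = 0.0149). F2r, a thrombin receptor, had log2 fold changes of -0.41 and -0.19 on its 2 probe sets, and Procr, the protein C receptor, one of 0.92. None of these passed the threshold in either fit.

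Among 8 tested genes of proteins that plasmin is known to cut or release, 0 passed without the block. Ltbp1, which holds latent TGF-beta in the matrix, read 469, 490.2 and 446 in Et1 cultures, against 849, 743 and 678 in control cultures, and fell by 0.63 with the block (limma adjusted p = 0.0130). Thbs1, thrombospondin, had log2 fold changes of -0.74 and -0.34, and Lamb1, a laminin chain, 0.37, 0.24 and 0.16. Hgf, the growth factor of hepatocytes, had -0.997 and -0.76. The Hgf probe set at -0.997 averaged 37.0 in Et1 cultures, under the filter signal of 41.0, and 74.8 in control cultures. None of these probe sets passed the threshold in either fit.

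**Figure D4:**
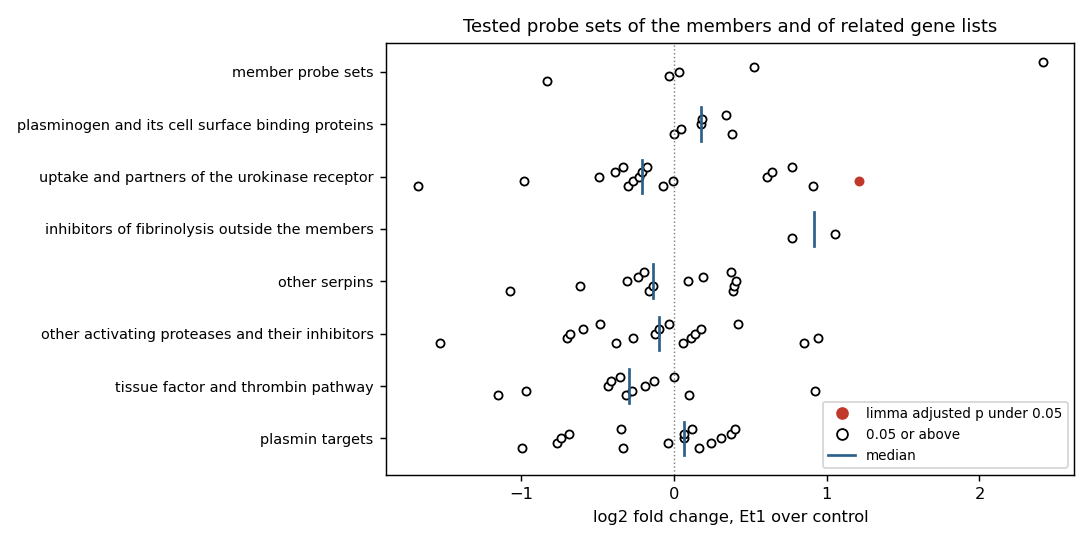
Log2 fold change, Et1 over control without a block, of each tested probe set of the members (top row) and of the 7 related lists (other rows), with the median of each list as a line. The filled point, Vldlr at 1.21, passed limma's threshold; Serpinb2 lies farthest to the right at 2.42 without passing.

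The pattern of each member over the 6 arrays was set against all other tested genes by Pearson's r of log2 signals on its brightest probe set, as a description over arrays that share the groups and the spike-in sets. Closest to Serpinb2 were Katnbl1, Scnm1 and Frzb (r = 0.999, 0.998 and 0.998), and 377 tested probe sets, its own among them, had an r above 0.95. The counts of the other members likewise include their own probe sets. Closest to Plaur were Srfbp1, Lamtor5 and Denr (r = 0.999, 0.999 and 0.998), with 546 above 0.95. Plat had Smad3, Pde4b and Cpd (r = 0.988, 0.987 and 0.985) and 68 above 0.95, and Serpinf1 had Lonp2, Kcnh3 and Atp6v1e2 (r = 0.995, 0.995 and 0.981) and 44 above 0.95. Plau was left out since its signals lay under the filter.

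Markers of other cells of skin that can express these genes were summed, each by its brightest probe set. The 8 macrophage markers summed to 466 to 548 in Et1 and 441 to 544 in control cultures, and the 8 keratinocyte markers to 421 to 505 in Et1 and 373 to 559.6 in control cultures. The 7 endothelial markers summed to 121 to 209.9 in Et1 and 103 to 126 in control cultures, with Pecam1, Vwf and Tie1 at no more than 12.7, 3.17 and 4.81 on any array. Among the others Tek averaged 26.0 in Et1 and 6.85 in control cultures and Emcn 29.7 in Et1 and 18.4 in control cultures, both without overlap and under the filter. The 2 tested ones, Cdh5 and Kdr, had log2 fold changes of 0.46 and 0.48 with overlapping groups (limma adjusted p = 0.706 and 0.777). The 6 melanocyte, 4 measured Schwann cell and 6 mast cell markers summed to 268 to 293, 187 to 225 and 148 to 182 in Et1 and to 248 to 303, 214 to 245 and 178 to 216 in control cultures. The sum of the 6 smooth muscle and pericyte markers did not overlap, at 1079 to 1642 in Et1 and 2120.3 to 3183 in control cultures. Most of it came from Cnn1, which contractile fibroblasts also express. Singly, Cnn1 and Myh11 lay all lower in Et1 cultures, and Des, Rgs5, Cspg4 and Smtn overlapped. The 10 fibroblast markers summed to 15243 to 27043 in Et1 and 21086 to 34445 in control cultures. No marker was listed at 0, and 0 of the probe sets of these 8 lists passed without the block. With it 4 of 16 fibroblast probe sets, of Col1a2, Col3a1 and Thy1, and 2 of 7 smooth muscle and pericyte probe sets, of Cnn1 and Smtn, fell, where 2.47% of all tested probe sets passed as lower. Without the block Col3a1 and Thy1 had log2 fold changes of -1.26 and -1.18 on their brightest probe sets. The part of these cells in the signals of the members was not tested.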

How the data were processed

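Messenger RNA of 6 cultures, 3 with Et1 and 3 without, was measured on Affymetrix Mouse430_2 arrays, 1 array each. Deposited was 1 linear intensity value for each probe set on each array. The submitters' processing notes name MAS5; its version and scaling target are not given in sources used here. The settings in the deposited experiment files were identical over the 6 arrays once sample, project and operator lines were left out, per the file headers.

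Each array was scaled to a common 2% trimmed mean, each of 4 zeros took the lowest value above 0 on its array, and signals went to log2 without a pseudocount, so folds of dim probe sets are sensitive to background. The 64 Affymetrix controls were left out, and 22519 of 45037 probe sets with a mean signal at or above the median of 41.0 were tested with limma 3.58.1 in R 4.3.3 (lmFit and eBayes, trend = TRUE, no block). P-values were adjusted by Benjamini and Hochberg over all 22519. Arrays carry no count of molecules, so their number limits the precision. The platform annotation gave 1 symbol for 34945 probe sets, several for 932 and none for 9160.

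Text names followed a rule: all member probe sets, per list each called gene and up to 4 more by smallest p, and the 3 genes most like each member; further probe sets of list genes and single marker genes were added after their values were seen. The members, the lists and the spike-in split were chosen with earlier results of these data known. The script was tested on simulated data with planted folds. Alternatives were quantile normalization, median centring, no filter, a filter at a signal of 147, 50 added before log2, no trend, the replicate number or the spike-in set as a block, and each array left out; leaving out arrays with the spike-in block was added later.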

Additional observations from a re-analysis of the deposited data

How the results depend on the processing

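Of all tested probe sets 78 passed; 44 did with median centring (7 higher and 37 lower, against 22 and 56), 40 without a filter, 7 without an intensity trend, 567 with the replicate block, 868 when blocking on the spike-in set, 4 (without control replicate 1 or 2) to 229 (without control replicate 3) with an array left out, and 23 (without Et1 replicate 2) to 1687 (without Et1 replicate 1) with the block and an array left out. Of the member probe sets 0 passed; 1, Serpinb2, did with the replicate block and when blocking on the spike-in set, 0 to 1 with an array left out, and 0 to 2 with the block and an array left out, the second being Plaur without Et1 replicate 1 (0.39, limma adjusted p = 0.0396). Of the related lists' probe sets 1 passed; 0 did with median centring or without a trend, 2 with the filter at the 75th percentile, 7 with the replicate block, 8 when blocking on the spike-in set, 0 to 4 with an array left out and 0 (without Et1 replicate 2 or control replicate 3) to 18 (without Et1 replicate 1) with the block and an array left out.

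The log2 fold change of Serpinb2 stayed above 0 in all 21 fits: it was 2.42 with the replicate block (limma adjusted p = 0.0117), 1.96 when blocking on the spike-in set, 1.54 within the high set, 1.95 to 3.02 with an array left out, and 1.54 to 2.38 with the block and an array left out. Serpinf1 changed sign, never past the threshold: its brighter probe set read -0.11 with quantile normalization, -0.022 with median centring, -0.082 to 0.18 with an array left out and -0.045 to 0.18 with the block and an array left out, and its dimmer one read 0.042 when blocking on the spike-in set, -0.14 to 0.12 with an array left out and -0.06 to 0.14 with the block and an array left out. Plat stayed below 0 and Plaur above 0 in all 21 fits. The groups of Serpinb2 and of the tested Plat probe set did not overlap, so leaving out an array or adding a block could not reverse their signs. Without control replicate 3 the control arrays left are all of the low spike-in set, and without Et1 replicate 2 the Et1 arrays left are all of the high set. The cause of the changes between settings was not tested. Replicate numbers were not taken as pairs, since no source ties a number to a shared culture. Deviations of same-numbered arrays from their group means had an r of -0.12, 0.44 and 0.45 for replicates 1, 2 and 3. Et1 replicate 1 correlated best with control replicate 3 (r = 0.26). Every r within a spike-in set was positive, and every r across the sets was negative. Replicates 2 and 3 pair within a set and replicate 1 across the sets, so these values cannot tell whether equal numbers share a culture. Signals of Plau, at most 27.2, limit any statement on it.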
